A study of Mus musculus with 4 samples.

Results

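The 10 genes described here belong to the neuromuscular junction and were followed in myotubes of C2C12, a mouse myoblast line whose cells fuse into these multinucleated muscle cells. They comprise the 5 muscle subunits of the nicotinic acetylcholine receptor (Chrna1, Chrnb1, Chrnd, Chrne and Chrng) and 5 organisers of the postsynaptic membrane (Musk, Dok7, Rapsn, Lrp4 and Agrn). The genes were taken by symbol, with no cut on their values but with earlier results of these data known. All 10 were found among the 23282 features of the count table, and all 10 were abundant enough to test. The myotubes, labelled as female, were kept without steroids and received, for 2 h, either vehicle or the synthetic glucocorticoid dexamethasone at 1 µM. Sequencing covered nascent RNA, the fraction that stays on chromatin when nuclei are extracted, with 2 libraries per group and 4 in all. Myotubes in culture have no nerve, so no synapse was present in either group. As the RNA comes from whole cultures, fewer nuclei of one kind and less RNA per nucleus cannot be told apart.

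At the neuromuscular junction the motor nerve releases acetylcholine onto a patch of muscle membrane packed with receptors, and each receptor is a pentamer of alpha, beta, delta and either gamma or epsilon subunits. The gamma subunit belongs to the fetal receptor and is replaced by epsilon after innervation. The patch is built by agrin (Agrn), which binds LRP4 (Lrp4) and thereby activates the receptor tyrosine kinase MuSK (Musk). DOK7 (Dok7) binds MuSK inside the cell and is needed for its activity, and rapsyn (Rapsn) anchors the receptors in a cluster. Before innervation, myotubes transcribe the receptor genes along their whole length under the control of myogenic factors that bind E-boxes.

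The total count was between 19631435 and 88596296 per library, lowest in vehicle replicate 1 and highest in dexamethasone replicate 2. Fkbp5, a standard glucocorticoid target used here to check the labels, was counted 400 and 819 times with vehicle and 30537 and 65051 times with dexamethasone. All 12 markers of myotubes had enough counts to test. Their summed level followed the replicate number, at 7567 and 7645 CPM (TMM-scaled counts relative to library size, in the usual CPM unit) in the 2 libraries numbered 1 against 3161 and 3159 in those numbered 2. Myh3 carried the largest part of this difference (3310 and 3490 against 1090 and 1080). Mymk (176 and 208 against 173 and 208) and Tnnt1 (93.5 and 102 against 107 and 101) did not share it. Mymx went the other way (8.9 and 9.88 against 11.6 and 15.6). Among 9 markers of motor neurons, Slc18a3 and Mnx1 were at 0 in every library and Chat had at most 1 count in each, while the choline transporter gene Slc5a7 had 69 to 308 counts (3.17 to 3.70 CPM) in every library. Of the 8 markers of Schwann cells, which ensheath the nerve, Sox10 had 2 counts in vehicle replicate 1 and 0 elsewhere. The summed level of the 6 myoblast and satellite cell markers was 367 and 440 CPM with vehicle and 862 and 881 with dexamethasone, mostly through Hmga2 (263 and 324 against 779 and 791), while Pax7 was at 32.0 and 39.0 against 17.9 and 22.9. The fibroblast markers summed to 36.4 and 57.0 CPM with vehicle and 33.3 and 32.1 with dexamethasone, with Lum and Thy1 at 0. Col1a1 carried most of that sum (24.3 and 47.4 against 19.9 and 16.8), and Pdgfra went the other way (6.12 and 4.30 against 9.14 and 12.05). The part of these shifts in the results below was not tested.

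Vehicle replicate 1 stood apart in one respect. In it 21 features lay above 5 CPM and above 8 times the highest of the other 3 libraries, against 0 such features in each of the others, by a rule set after the values were seen. Genes that neurons express led them, among them Syt1 (13.1 CPM against at most 0.334), Snap25 (8.58 against at most 0.0428) and Gria1 (12.1 against at most 0.632). None of the 10 neuromuscular genes was among the 21, and the fold changes without this library are given with each of the 10.

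In vehicle-treated myotubes the nascent RNA of the fetal subunit gene Chrng far exceeded that of its adult counterpart. The genes of 4 subunits stood within a narrow range of each other per kb of exon, whereas Chrne, the adult subunit, lay far below all of them. In CPM per kb of exon, the vehicle means were 51.0 ± 18.4 (SD, n = 2) for Chrna1, 41.3 ± 3.13 for Chrnd, 38.3 ± 4.96 for Chrng and 35.4 ± 3.77 for Chrnb1. Chrne was at 1.39 ± 0.273 (SD, n = 2). The 2 vehicle libraries of each of these 4 genes overlapped those of its neighbours in this order, so by exon length only Chrne was set apart. By the same measure Chrna1, Chrnd, Chrng and Chrnb1 exceeded between 94.1% and 96.6% of all tested genes, and Chrne exceeded 26.8%.

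Among the organisers Musk was highest, at 61.0 ± 0.252 CPM per kb of exon (SD, n = 2), the top value of the 10 genes. Dok7 was at 33.4 ± 10.8, Rapsn at 28.6 ± 2.36 and Lrp4 at 21.1 ± 3.84. Agrn, whose product muscle also makes although the nerve supplies the active isoform, was at 4.05 ± 1.42. The libraries of Rapsn, Lrp4, Agrn and Chrne did not overlap between neighbours in that order, while those of Musk overlapped the libraries of Chrna1, and those of Dok7 overlapped the libraries of both its neighbours.

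This order rests on the length taken for each gene, because it is not given whether reads in introns were counted. Musk has 3776 bases of exon in a span of 88344 bases, and Chrng 4163 in 8038. Per kb of genomic span Chrng came first, at 19.8 ± 2.57 CPM (SD, n = 2), and Musk was eighth of the 10 at 2.61 ± 0.0108. By span the subunits lay further apart. The vehicle libraries of Chrng were above those of Chrnd (14.35 ± 1.09), and those of Chrnb1 (7.53 ± 0.801) were below those of Chrna1 (13.1 ± 4.70). Agrn and Chrne were the lowest 2 by either length.

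**Figure D1:**
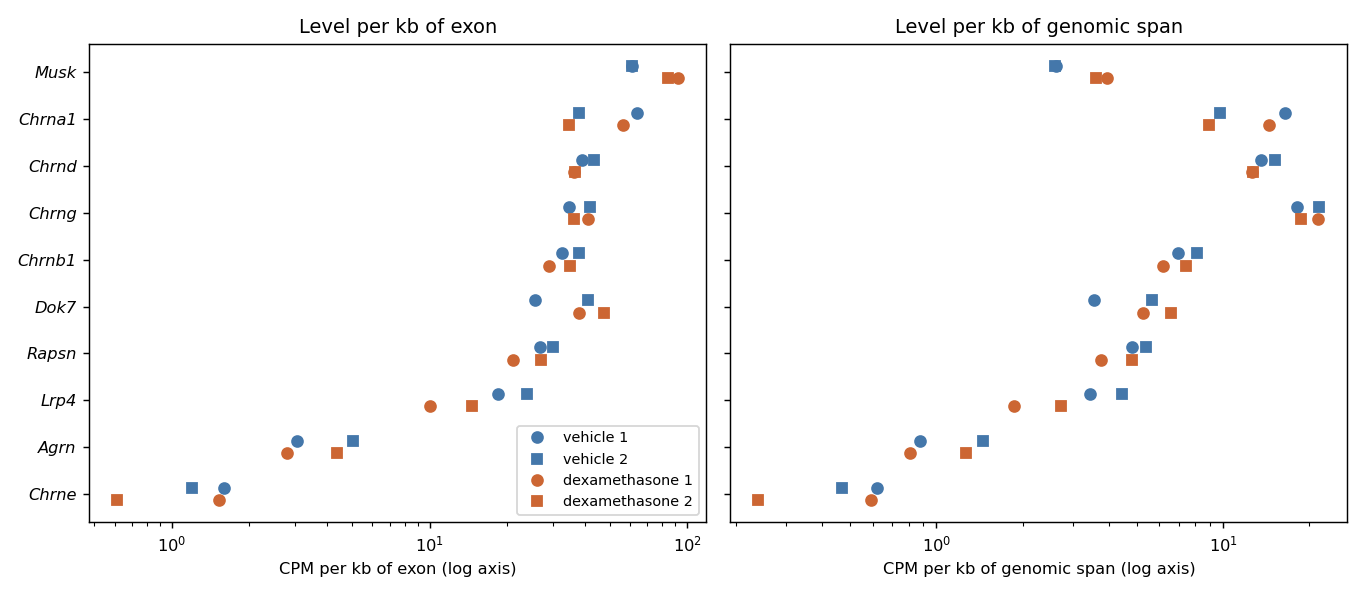
Level of each gene per kb of exon (left) and per kb of genomic span (right), in CPM on log axes, with 1 point per library coloured by group and shaped by replicate number. Chrne and Agrn are lowest in both panels, and by the vehicle means Musk moves from first by exon to eighth by span.

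The balance of gamma and epsilon was read as a share within each library. Chrng took 98.2% of the Chrng and Chrne counts in vehicle replicate 1 (95% Wilson interval 97.6% to 98.6%) and 98.9% in vehicle replicate 2 (98.6% to 99.1%). After dexamethasone it took 98.5% (98.2% to 98.8%) and 99.3% (99.2% to 99.4%). These intervals cover counting error only. The groups overlapped, and the difference of their means, 98.5% ± 0.474 against 98.9% ± 0.566 (SD, n = 2 each), was smaller than the spread within either. Per kb of exon, Chrng exceeded Chrne by 21.9 and 34.8 times in the vehicle libraries and by 27.1 and 58.9 times in the dexamethasone libraries. Chrne rests on few reads, 50 and 77 with vehicle and 77 and 97 with dexamethasone, so its values are the least precise of the 10. A gene on the opposite strand, 4930544D05Rik, overlaps Chrne without sharing exons and had between 2 and 11 counts.

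Promoter sequences are shown for Chrng and Chrne, the 2 subunits that differ most in level per kb of genomic span. They are also shown for Chrna1, the subunit highest per kb of exon, and for Musk. Of the organisers, Musk had the lowest p in the comparison with dexamethasone. Each sequence is the 250 bases before the RefSeq start, on the GRCm38.p6 build, read 5′ to 3′ on the strand of the gene. These are chr1:87205561-87205810 on the plus strand for Chrng, chr11:70619195-70619444 on the minus strand for Chrne, chr2:73580339-73580588 on the minus strand for Chrna1 and chr4:58285712-58285961 on the plus strand for Musk. Capitals mark E-boxes (CANNTG) and, in Chrne, also the N-box CCGGAA, a site for GABP known from synaptic genes.
Chrng: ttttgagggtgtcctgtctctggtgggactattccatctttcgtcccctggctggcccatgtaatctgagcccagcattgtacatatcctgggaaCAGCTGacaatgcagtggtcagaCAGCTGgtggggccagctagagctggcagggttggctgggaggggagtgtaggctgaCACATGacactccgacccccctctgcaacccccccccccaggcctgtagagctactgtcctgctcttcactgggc
Chrne: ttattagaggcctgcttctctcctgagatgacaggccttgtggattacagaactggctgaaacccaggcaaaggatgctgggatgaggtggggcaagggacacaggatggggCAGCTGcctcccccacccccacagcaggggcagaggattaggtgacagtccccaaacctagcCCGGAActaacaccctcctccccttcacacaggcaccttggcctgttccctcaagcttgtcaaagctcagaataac
Chrna1: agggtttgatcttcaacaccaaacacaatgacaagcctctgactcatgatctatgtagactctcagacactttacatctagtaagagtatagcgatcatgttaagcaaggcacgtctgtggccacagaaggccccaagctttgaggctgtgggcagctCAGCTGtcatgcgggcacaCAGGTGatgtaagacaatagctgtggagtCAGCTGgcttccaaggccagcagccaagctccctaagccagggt
Musk: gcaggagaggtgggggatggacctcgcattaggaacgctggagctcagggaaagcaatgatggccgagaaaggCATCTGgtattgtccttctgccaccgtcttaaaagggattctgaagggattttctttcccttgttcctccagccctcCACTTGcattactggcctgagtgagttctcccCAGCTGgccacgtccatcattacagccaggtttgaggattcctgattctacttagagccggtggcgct

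The promoter table held 9 windows of 300 bases (250 before to 50 after the start) for 7 of the 10 genes. Chrnd, Rapsn and Lrp4 had no entry. Searched on both strands, CAGCTG, the form of E-box that myogenic factors favour, was found in 4 of the 7 (Chrng, Chrna1, Musk and Chrne). By window it was in 4 of the 9, beside 16.3% of all 32851 windows. CAGCTG is one form of CANNTG, which all 7 held in at least 1 window; by window it was in 7 of the 9, beside 72.3% of all windows. CCGGAA was in 1 of the 7, Chrne, and by window in 1 of the 9, beside 14.9% of all windows. The glucocorticoid response element in its full palindromic form was in 0 of the 7 and in 0.00913% of windows, and the shorter motif AGAACA, one arm of it, was in 0 of the 7 and in 19.0% of windows. A match is a string of letters and not a shown site.

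What a 2 h dexamethasone exposure did to these genes was read against vehicle. Musk was higher and Lrp4 lower in both dexamethasone libraries than in both vehicle libraries, by 1.45-fold and to 0.583 of the vehicle level, while for 4 of the 5 receptor subunits the group means differed by less than the spread between replicates. By edgeR's quasi-likelihood test, adjusted over all 13285 genes that entered it, none of the 10 passed an adjusted p of 0.05 (0 higher and 0 lower). Of all genes it called 5 higher (0.0376%) and 0 lower (0.0%). With p under 0.05 before adjustment, 1 of the 10 was higher (Musk) and 1 lower (Lrp4), where 4.09% of all genes were higher and 1.69% lower. Of the 10, the Wald test of DESeq2 called 0 (all genes: 1.78% higher and 0.399% lower), as did edgeR's likelihood ratio test (1.83% and 0.339%) and limma-voom (0.0% in each direction). None of these fits has a term for the replicate number. The fit with such a term, given further below, changed the call for Musk, Dok7 and Lrp4. Nothing in the labels says that the libraries of a group came from separate cultures, so these p-values measure only the spread between the libraries. With residual degrees of freedom of 2, genes that did not pass are not shown to be unchanged.

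The groups did not overlap for 1 gene that was higher (Musk) and 2 that were lower (Lrp4 and Chrnd), where 15.0% and 12.9% of all genes did so. Within each replicate number, where there is 1 library per group and no test, 2 of the 10 were higher after dexamethasone in both numbers (Musk and Dok7) and 7 lower in both, against 34.2% and 33.9% of all genes. Chrng was the remaining gene. The median log2 fold change of the 10 was -0.17 beside 0.00 (-0.0016) for all genes tested, and lay between -0.225 and -0.0396 with one library left out (-0.225, -0.0565, -0.0782 and -0.0396 without vehicle 1, vehicle 2, dexamethasone 1 and dexamethasone 2).

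**Figure D2:**
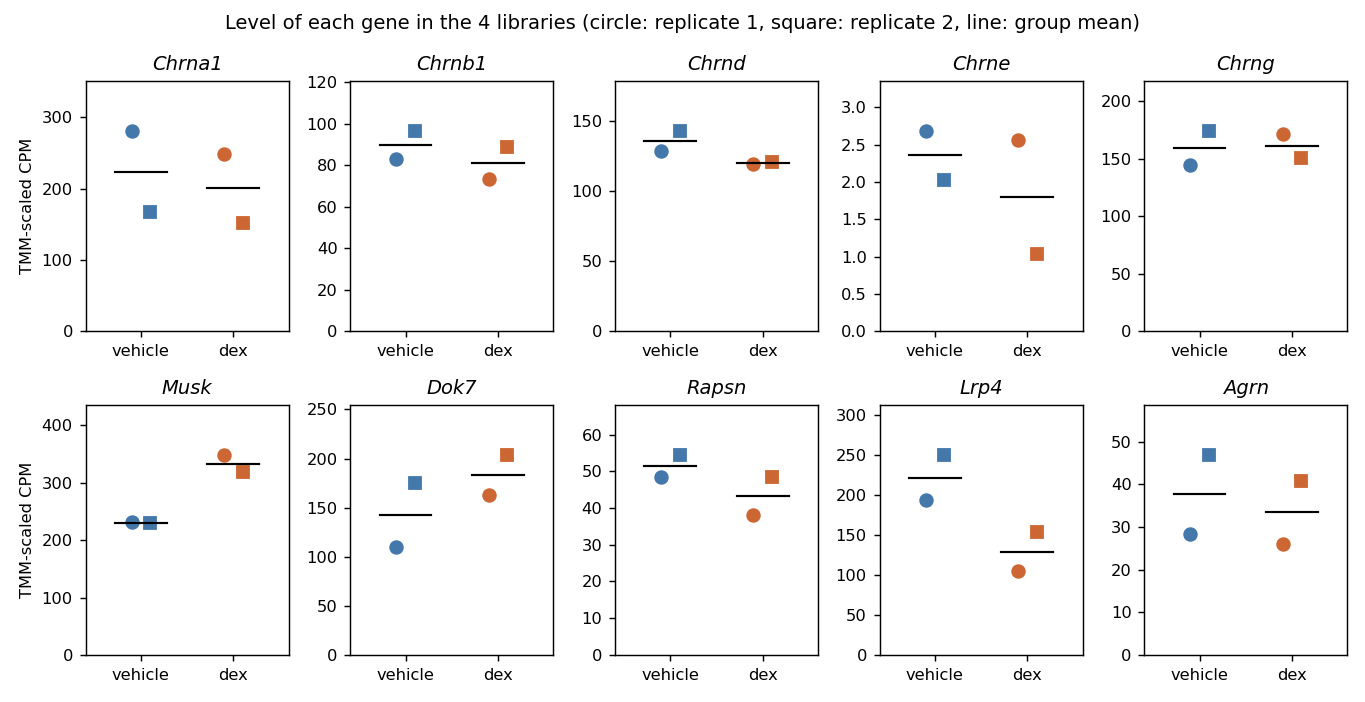
TMM-scaled CPM of each of the 10 genes in each library, with circles for replicate 1, squares for replicate 2 and a line at the group mean; each panel has its own linear axis starting at 0. The 2 groups are separated for Musk, Lrp4 and, narrowly, Chrnd, and overlap for the other 7 genes.

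Musk (ENSMUSG00000057280), the kinase at the centre of the pathway, had 4304 and 8710 counts with vehicle and 10456 and 29692 with dexamethasone. That is 231 and 230 CPM against 349 and 318. The vehicle libraries were almost equal, and both dexamethasone libraries lay well above them. The log2 fold change was 0.53 (SE 0.125, 95% interval 0.20 to 0.87, not adjusted for the number of genes), with an edgeR unadjusted p of 0.00970 and an adjusted p of 0.394. Within the replicate numbers the log2 difference was 0.60 and 0.47. Leaving out any one library gave values from 0.47 to 0.60, and 0.54 without vehicle replicate 1.

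Lrp4 (ENSMUSG00000027253), the agrin receptor, had 3595 and 9483 counts with vehicle and 3147 and 14302 with dexamethasone. Its level was 193 and 250 CPM against 105 and 153. Both dexamethasone libraries were below the lower vehicle library. The log2 fold change was -0.78 (SE 0.248, 95% interval -1.43 to -0.12, unadjusted for the number of genes), with an edgeR unadjusted p of 0.0291 and an adjusted p of 0.690. Within the replicate numbers it was -0.88 and -0.71, and with one library left out it ran from -1.08 to -0.53 (-0.95 without vehicle replicate 1).

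Dok7 (ENSMUSG00000044716), the intracellular partner of MuSK, was at 110 and 175.5 CPM with vehicle and 163 and 204 with dexamethasone. The groups overlapped, although within each replicate number the dexamethasone library was the higher, by 0.57 and 0.22 on the log2 scale. The log2 fold change was 0.36 (SE 0.271, edgeR adjusted p 0.9999). It was 0.06 without vehicle replicate 1, the lowest library, and 0.74 without vehicle replicate 2. Without dexamethasone replicates 1 and 2 it was 0.52 and 0.19. For every gene, leaving out one library also leaves the replicate numbers unequal between the groups, and Dok7 was lower in the libraries numbered 1.

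Rapsn (ENSMUSG00000002104), the gene of the receptor anchor, was at 48.5 and 54.5 CPM against 38.0 and 48.6, with a log2 fold change of -0.25 (SE 0.178) that was -0.33 and -0.155 without vehicle replicates 1 and 2, and -0.08 and -0.44 without dexamethasone replicates 1 and 2. An RNA of the opposite strand, Gm13778, overlaps its exons, and the counting is not stated to use strand, so reads from either cannot be told apart. Agrn (ENSMUSG00000041936) was at 28.3 and 46.9 CPM against 26.1 and 40.7, a log2 fold change of -0.17 (SE 0.344). Within the replicate numbers the Agrn difference was -0.12 and -0.20. The fold change turned to 0.25 without vehicle replicate 2 and to 0.12 without dexamethasone replicate 1. It was -0.49 and -0.53 without vehicle replicate 1 and dexamethasone replicate 2. In both genes the groups overlapped and the edgeR adjusted p was 0.9999.

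**Figure D3:**
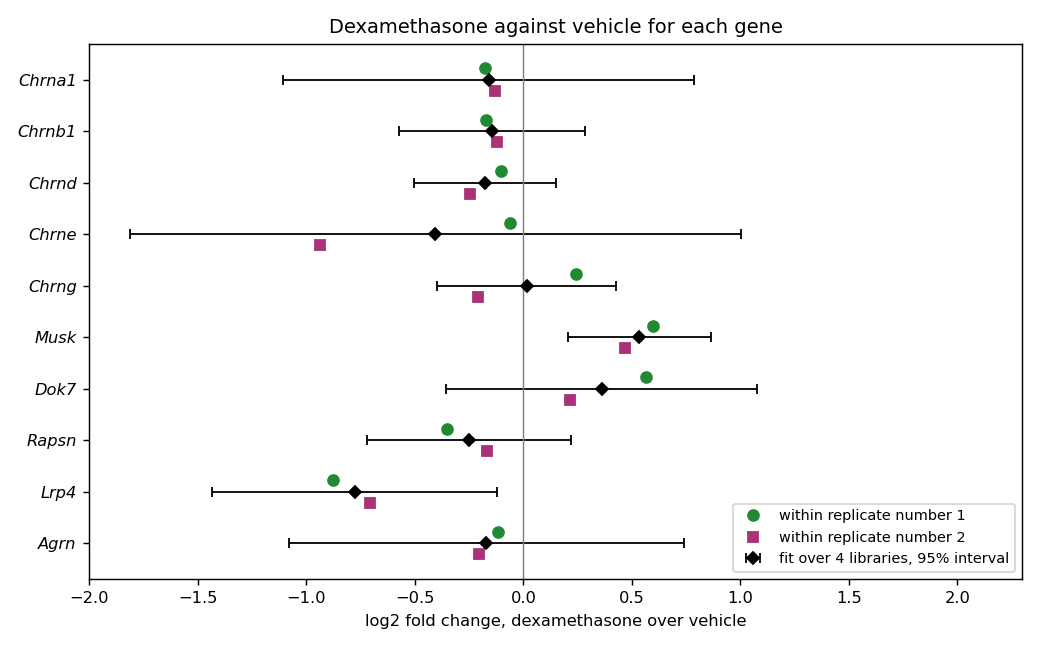
log2 fold change of dexamethasone over vehicle for each gene, with diamonds and bars for the fit over 4 libraries and its 95% interval, and coloured points for the difference within each replicate number. The intervals of Musk and Lrp4 lie on one side of 0 (0.20 to 0.87 and -1.43 to -0.12), and the other 8 span it.

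None of the 5 receptor subunits passed the test. Within both replicate numbers 4 of them (all but Chrng) were lower after dexamethasone, as were 33.9% of all genes tested. For Chrne the log2 difference within replicate number 1 was only -0.06. Chrnd (ENSMUSG00000026251), the delta subunit, was at 128 and 143 CPM with vehicle and 120 and 121 with dexamethasone, so that the groups were apart by a small margin. Its log2 fold change was -0.18 (SE 0.124; edgeR unadjusted p 0.218, adjusted p 0.9999), with a 95% interval from -0.50 to 0.15, and was -0.25 and -0.09 without vehicle replicates 1 and 2. Chrnb1 (ENSMUSG00000041189), the beta subunit, was at 82.9 and 96.4 CPM against 73.5 and 88.6, and its log2 fold change of -0.14 had a 95% interval from -0.57 to 0.28. It was -0.25 and -0.02 without vehicle replicates 1 and 2, and -0.01 and -0.29 without dexamethasone replicates 1 and 2. Both intervals span 0.

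Chrng (ENSMUSG00000026253), the fetal gamma subunit, was at 145 and 174 CPM with vehicle and 172 and 151 with dexamethasone. The 2 dexamethasone values lay between the vehicle values. The log2 fold change was 0.01 (95% interval -0.40 to 0.43), was below 0 under 2 other scalings and without vehicle replicate 1 (-0.11) or dexamethasone replicate 1 (-0.08), and differed in sign between the replicate numbers (0.24 and -0.21). Chrna1 (ENSMUSG00000027107), the alpha subunit that holds the main part of the acetylcholine binding site, was at 281 and 167 CPM against 248 and 152. Its log2 fold change was -0.16 (95% interval -1.11 to 0.79), since the libraries of each group were far apart. Within the replicate numbers the difference was -0.18 and -0.13, but the fold change turned to 0.26 without vehicle replicate 1 and to 0.15 without dexamethasone replicate 2. Chrne (ENSMUSG00000014609) was at 2.68 and 2.03 CPM against 2.57 and 1.04, a log2 fold change of -0.40 with a 95% interval from -1.81 to 1.00. Its lowest library was dexamethasone replicate 2, without which the value was 0.13; it was -0.20 and -0.60 without vehicle replicates 1 and 2, and -1.17 without dexamethasone replicate 1. For these 3 genes the edgeR adjusted p was 0.9999.

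The spread within the groups was not the same for all subunits, and it followed the replicate number. Chrna1 was higher in the libraries numbered 1 than in those numbered 2, by 0.75 on the log2 scale with vehicle and 0.70 with dexamethasone. Chrne, at few counts, did likewise (0.40 and 1.27). Chrnb1 went the other way (-0.22 and -0.27), and so did Dok7 (-0.67 and -0.32), Rapsn (-0.17 and -0.35), Lrp4 (-0.37 and -0.54) and Agrn (-0.73 and -0.64). Chrnd was at -0.15 and -0.01 and Musk at 0.01 and 0.13, and Chrng had no common sign (-0.26 and 0.19). The libraries numbered 1 were also those with the higher summed level of myotube markers, given above, and the part of that difference was not tested. The labels do not say what the number stands for, and with 2 libraries per number these are descriptions.

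**Figure D4:**
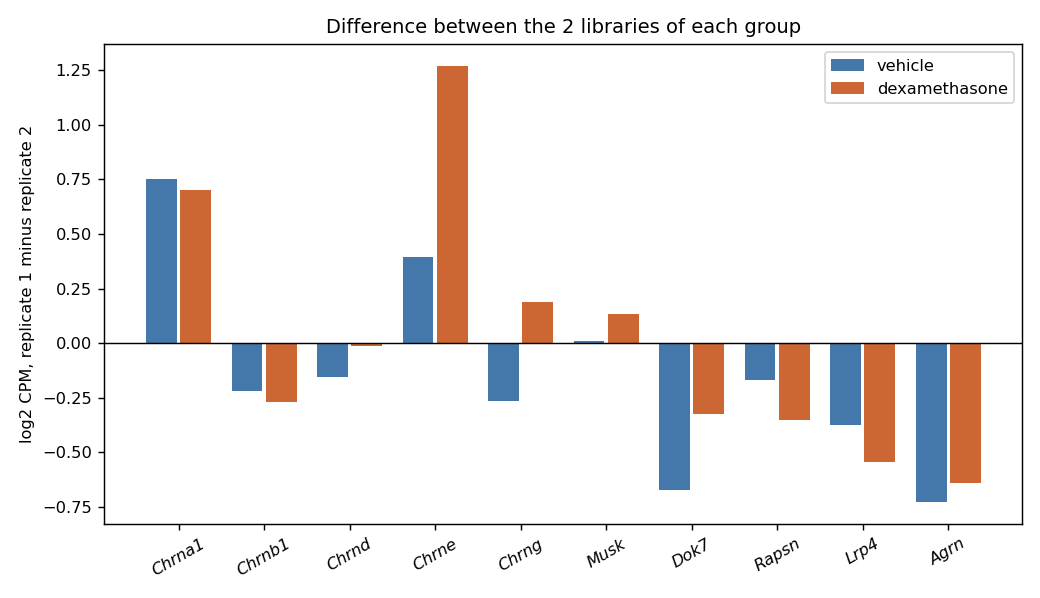
Difference in log2 CPM between the library numbered 1 and the library numbered 2 of each group, with 1 bar for vehicle and 1 for dexamethasone per gene. Chrna1 and Chrne are positive in both groups, while Chrnb1, Dok7, Rapsn, Lrp4 and Agrn are negative in both.

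Other genes of the junction were taken from 6 lists of 112 symbols, of which 110 were found and 90 were tested. One of the remaining symbols, Nes, has 2 rows with different counts and was left out, and Geft was not matched. No gene of the lists passed an adjusted p of 0.05 in edgeR's quasi-likelihood test, and an unadjusted p under 0.05 was reached by 6 higher genes and 1 lower gene of the 90 (all genes tested: 4.09% and 1.69%). The median log2 fold change of the 90 was -0.04. By DESeq2's Wald test 3 genes were called higher and 1 lower (all genes: 1.78% and 0.399%), by the likelihood ratio test 3 and 0 (1.83% and 0.339%), and by limma-voom 0. Of the 9 listed genes at 0 in all libraries, 7 lie in long unbroken runs of genes that are all at 0, so their zeros were not read as silence. Chrna3, Chrnb4, Dag1, Ncam1 and Tcf12 are among them, in a run of 371 genes on the minus strand of chromosome 9. The other two, Chrna2 and Chrna6, are neuronal receptor subunits.

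In the list of basal lamina and membrane cytoskeleton the log2 fold changes ran from -0.96 to 2.63. Of its 22 tested genes, 5 had an unadjusted p under 0.05 (4 higher, 1 lower), and the median was -0.01. Col4a1 and Col4a2, which encode collagen IV chains of the basal lamina and lie head to head in the genome, were at 101 and 162 CPM and at 124 and 211 with vehicle, and at 766 and 870 and at 992 and 1046 with dexamethasone. Their log2 fold changes were 2.63 (SE 0.276) and 2.61 (SE 0.300), with an edgeR adjusted p of 0.123 for both. Dtna (alpha-dystrobrevin, log2 fold change 1.34) and Nid1 (nidogen, -0.96), named after their values were seen, were also among these.

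Among 11 genes of neuregulin and ErbB signalling, Dok1 was at 3.17 and 4.03 CPM against 6.34 and 8.20 (log2 fold change 1.01, SE 0.261; edgeR adjusted p 0.478). Erbb4 had 167 counts in vehicle replicate 1, where it was one of the 21 genes set apart, and 6, 24 and 31 in the other libraries, so its log2 fold change of -3.05 (SE 1.73) rested on that library; the remaining vehicle library lay below both dexamethasone libraries. Of 21 tested regulators of receptor gene transcription, 1 was higher and 0 lower with p under 0.05 before adjustment. Id2 was at 5.31 and 0.685 CPM with vehicle and 0.334 and 0.707 with dexamethasone, so its log2 fold change of -2.42 (SE 1.07; edgeR adjusted p 0.989) also rested on vehicle replicate 1, and the other vehicle library lay between the dexamethasone libraries.

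In the remaining lists the log2 fold changes ran from -0.41 to 0.16. Of 25 genes of MuSK and agrin signalling, the 2 with the lowest p were the chaperone gene Hspa8 (log2 fold change -0.35, SE 0.185) and the kinase gene Fyn (-0.41, SE 0.251). Of 8 tested genes of other subunits and receptor assembly, they were Unc50 (0.16, SE 0.149) and Gfpt1 (-0.06, SE 0.114), the latter the first enzyme of the hexosamine pathway. Of 3 tested genes of transmitter breakdown and synaptic ion channel, they were Colq (-0.15, SE 0.169) and Ache (-0.26, SE 0.490), which encode the collagen tail and the catalytic subunit of acetylcholinesterase. The edgeR adjusted p of these 6 genes was 0.9999, and none had an unadjusted p under 0.05.

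**Figure D5:**
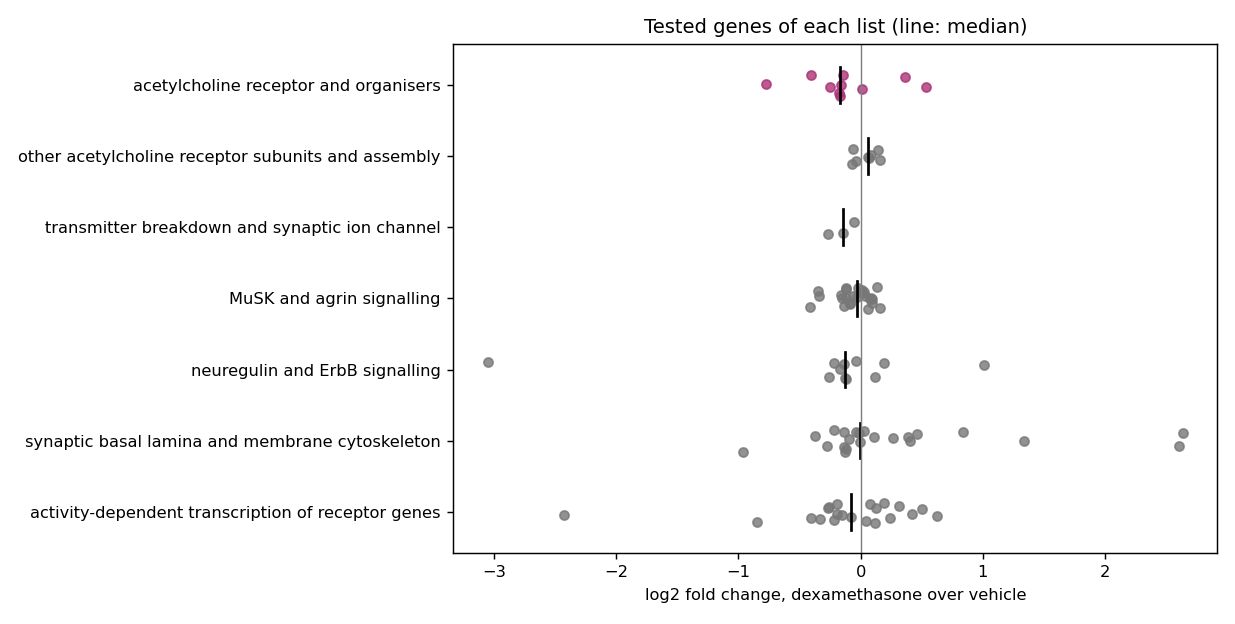
log2 fold change of dexamethasone over vehicle for the 10 genes and for the tested genes of each list, 1 point per gene, with a line at the median. Most points lie near 0, and Col4a1 and Col4a2, at 2.63 and 2.61, are the highest.

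The pattern of the receptor across the 4 libraries was summarised as the median of the 5 subunits' log2 CPM, each centred on its own mean. It was 0.01 in vehicle 1, 0.12 in vehicle 2, 0.10 in dexamethasone 1 and -0.08 in dexamethasone 2. The 5 other genes closest to it by Euclidean distance were Hexim1 (0.0768), Wfikkn1 (0.0796), Eci1 (0.0811), Psenen (0.0834) and Zfp213 (0.0843). With 4 libraries and a nearly flat profile, this names genes that varied as little as the receptor median did. The median does not stand for each subunit. Between replicate numbers 1 and 2, Chrna1 differed by 0.75 (vehicle) and 0.70 (dexamethasone) on the log2 scale, and Chrnb1 by -0.22 and -0.27.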

How the data were processed

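Nascent RNA bound to chromatin was sequenced from 4 libraries of C2C12 myotubes, 2 with vehicle and 2 with dexamethasone, grouped by sample title. The authors deposited one table of counts, giving unnormalized reads for each gene. The submitters' processing notes name TopHat2 2.0.13, SAMtools 1.1, HTSeq 0.6.1, DESeq2 1.18.1 and the build mm9; whether introns or strand entered the counts is not given in the sources used here. The labels name a total RNA kit and an mRNA kit, both stranded.

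Of 23333 rows, 51 repeated another and were used once, leaving 23282. Genes were filtered with filterByExpr (minimum count 10, total 15), scaled by TMM and tested across all 13285 remaining genes with edgeR 4.0.16 (R 4.3.3) (quasi-likelihood F test, a design of group alone, no direction preset) with Benjamini-Hochberg adjustment. The log2 CPM values have a prior count of 2, and the 95% intervals use the moderated degrees of freedom (residual 2, prior 2.56). Alternatives were other scalings and filters, DESeq2 1.42.0, limma-voom 3.58.1, edgeR's likelihood ratio test, a block for the replicate number and leaving out each library. Every pair of libraries differed by more than sampling noise (chi-square per degree of freedom 45.8 to 245). The test was also run on simulated counts with the same spread for all genes, and the outcome is not reported here.

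Gene lengths came from GENCODE M21 (GRCm38), and promoters from RefSeq (GRCm38.p6), matched by Ensembl identifier and symbol. Depth runs from 19631435 to 88596296 counts per library and limits precision most in vehicle replicate 1. Named genes are the 10, the 2 lowest p of each list, the 5 nearest patterns and Fkbp5; some genes are not reported here. The members and lists were chosen with earlier results of these data known.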

Additional observations from a re-analysis of the deposited data

How the results depend on the processing

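Musk stayed above 0 and Lrp4 below 0 under all 13 alternatives that refit them, and neither they nor the other 8 genes passed without a replicate term. Whether equal replicate numbers mean a shared day or culture is not given, and 2 pairs cannot show what the number stands for. Libraries of equal number were the closest pairs, with a chi-square per degree of freedom of 45.8 and 76.4. For the libraries of one group it was 139 (vehicle) and 245 (dexamethasone). The differences between the numbers correlated between groups across the tested genes (Pearson's r = 0.734). In the fit with a replicate block, 3 of the 10 genes were called, Musk (log2 fold change 0.53, adjusted p 0.00221) and Dok7 (0.38, 0.0382) higher and Lrp4 (-0.79, 0.000687) lower, where that fit, on residual degrees of freedom of 1, called 1681 genes in all (6.87% higher and 5.78% lower). Of the 90 tested genes of the lists it called 12 higher and 7 lower, among the latter Fyn (adjusted p 0.00403) and Dvl1 (0.0409). Over all genes, 23 were called with no filter beyond 1 count, 289 by DESeq2's Wald test, 288 by the likelihood ratio test and 0 by limma-voom (where 771 had an unadjusted p under 0.05). Leaving out one library gave 4 to 193 genes, the fewest without vehicle replicate 1 and the most without vehicle replicate 2 (24 and 28 without dexamethasone replicates 1 and 2); the lone library left in a group is assumed to vary like the others. The cause was not tested.

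The median log2 fold change of the 10 ran from -0.225 (without vehicle replicate 1) to -0.0396 (without dexamethasone replicate 2), and was -0.0565 without vehicle replicate 2 and -0.0782 without dexamethasone replicate 1. Chrng was at -0.0129 with upper quartile scaling and -0.0382 with library size only. With one library left out, Chrna1 ran from -0.547 to 0.263, Chrne from -1.17 to 0.130, Chrng from -0.111 to 0.161 and Agrn from -0.532 to 0.249. The share of Chrng, per kb of exon, was 96.4% with vehicle and 97.4% with dexamethasone, and per kb of genomic span 97.3% and 98.0%, as the 2 genes differ in length. Depth limits Chrne, at 97 counts or fewer in each library.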

Other observations

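Besides Syt1, Snap25 and Gria1, the features that set vehicle replicate 1 apart included Gria4 (10.3 CPM against at most 0.290 elsewhere), Crmp1 (5.63 against 0), Fabp7 (5.36 against at most 0.0334) and Grin2b (5.10 against at most 0.0667). Each rested on between 95 and 245 counts in that library.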
